A study of Mus musculus with 19 samples.

Results

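Peaks of 5-hydroxymethylcytosine (5-hmC) at the ends of protein-coding transcripts were examined in mouse cardiomyocytes (CMCs), the contractile cells of the heart. A peak was taken as a transcript-end peak when its centre lay in a 3' UTR, or from 100 bp before to 1 kb after a transcript end, but not within 1 kb of a transcription start site and not in a coding exon. Only autosomes were used. Of 989991 autosomal peaks in 8 lists (1000847 with all chromosomes), 22517 followed this rule. No measured level entered the rule, and no member came from the last 100 bp of a transcript outside a 3' UTR, so each member was centred either in a 3' UTR or in the downstream flank, the 1 kb past the end. The bases that the rule admits cover 42.2 Mb, or 1.76% of the sequenced autosomes, of which 24.0 Mb are 3' UTR and 18.2 Mb are flank.

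CMCs came from C57BL/6J mice at 4 points, with 2 biological replicates at each. The mice, all described as male, were E14.5 embryos, newborns aged 1 to 2 days, adults aged 2 months, and adults 1 week after transverse aortic constriction (TAC), an operation that narrows the aorta, loads the left ventricle with pressure and makes CMCs hypertrophic. Genomic DNA was sheared, fragments carrying 5-hmC were pulled down with an antibody (hMeDIP), and peaks were called in each replicate against unprecipitated input DNA with HOMER, a program that joins regions of excess reads. Adult and TAC cells came from the perfused left ventricle and the younger cells from digested ventricles with a preplating step, so the way of isolation differed together with age, and cells other than CMCs can remain in both. No list used here is labelled as sham-operated, so effects of the constriction and of the surgery cannot be told apart.

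5-hmC is made from 5-methylcytosine, mostly at CpG dinucleotides, by the TET enzymes, and in many tissues it lies over the bodies of transcribed genes. The 3' UTR is the last transcribed part of a gene, carrying signals for mRNA stability, localization and polyadenylation. RNA polymerase II runs on past the polyadenylation site before it is released, so the flank just downstream is also transcribed, though not kept in the mRNA. As a peak list does not tell strong from weak peaks, a mark in a part of the cells and a weak mark in every cell cannot be told apart here.

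To show what the downstream flanks hold, 30-base stretches are given, each the richest in CpG under peaks of both adult lists that lies past a transcript end and in no exon of a curated RefSeq transcript (mm10, which is GRCm38, 5' to 3' on the strand of the gene, CpG in capitals). The opening 3 belong to genes with a transcript-end peak in every list, and the other 3 to genes whose end had a peak in both adult lists and in no E14.5 or neonatal list.
Bcl2l11, chr2:128131715-128131744, plus strand, past the end of a shorter transcript of the gene: ctatgcaattggcctCGgCGctggagCGCG
Sec14l1, chr11:117160049-117160078, plus strand: ctagtccagattgctaaCGtgCGttcacCG
Ywhag, chr5:135908316-135908345, minus strand: CGgtgggCGtcctccacctccactggggag
Lipe, chr7:25379429-25379458, minus strand: CGagaCGatttagaccCGaagtctgccctt
Lsm10, chr4:126099037-126099066, plus strand: ccagtctgCGttaCGtgctttagtcaaaCG
Ndufb7, chr8:83571963-83571992, plus strand: aggctgccttgctggaagggcagCGcacCG
These stretches hold between 2 and 4 CpG in 30 bases, but they were picked as the richest and do not stand for the flanks. The flanks as a whole hold 0.937 CpG per 100 bp and the 3' UTRs 1.12.

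The lists held from 104215 to 153637 peaks each, on all chromosomes, and as the files used do not give the reads in each list, no counting interval is given. TAC replicate 2 stood apart. Of its transcript-end peaks, 26.0% had a peak centre of another list within 250 bp, against 59.1% to 78.6% in the other 7 lists, and for 33.8% the nearest centre lay 400 to 700 bp away, against 4.28% to 9.29%. Shares, densities and peak bases for TAC are therefore given per replicate.

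The label of the cells was checked with peaks in the bodies of marker genes. The 30 genes of sarcomere and Z-disc held 10.7 to 12.6 gene-body peaks per 100 kb in the E14.5 lists, 16.2 to 17.4 in the neonatal, 15.7 to 16.2 in the adult and 10.1 to 15.8 in the TAC lists, beside means of 6.83, 7.75 and 7.19 over all genes at the 3 points without TAC. Of these 30 genes, 20 to 26 had a gene-body peak in each list, and only Tcap had none in any. The 18 fibroblast and matrix genes together held 81 and 87 gene-body peaks in E14.5 lists, 60 and 78 in neonatal lists, 51 and 55 in adult lists and 46 and 39 in TAC lists, with Col3a1, Lum and Tcf21 at 0 in all lists. The 17 endothelial genes held 134 and 138 in E14.5 lists, 130 and 139 in neonatal lists, 89 and 105 in adult lists and 77 and 90 in TAC lists, with Cldn5 at 0 throughout. Per 100 kb, fibroblast and matrix genes held 8.89 and 9.55 at E14.5, 6.58 and 8.56 in neonatal and 5.60 and 6.03 in adult lists. Endothelial genes held 11.8 and 12.1 at E14.5, 11.4 and 12.2 in neonatal and 7.83 and 9.24 in adult lists. At E14.5 the endothelial genes overlapped the sarcomere genes, so this check did not set CMCs apart from endothelial cells at that point. Markers of both other cell types had fewer peaks in adult than in E14.5 lists, and their part in the differences below was not tested.

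The share of peaks at transcript ends was higher in adult CMCs than at either earlier point. At E14.5, 2532 of 130532 autosomal peaks (1.94%) in replicate 1 and 2361 of 137275 (1.72%) in replicate 2 were transcript-end peaks. The neonatal lists held 2729 of 134863 (2.02%) and 3225 of 151247 (2.13%). The adult lists held 2972 of 103752 (2.86%) and 3431 of 120808 (2.84%). The shares did not overlap between groups and lay in the order of age, and the adult lists held more members than the E14.5 lists although they held fewer peaks. Member counts of the neonatal and adult lists overlapped, so the higher adult share beside the neonatal lists came largely with fewer peaks in all.

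The mean share was 1.83% ± 0.155 (SD, n = 2) in E14.5 lists, 2.08% ± 0.0769 in neonatal and 2.85% ± 0.0173 in adult CMCs, a difference between adult and E14.5 of 1.02 percentage points, of which 0.774 lay between neonatal and adult. An exact permutation test of the trend over the 90 arrangements of the 6 samples without TAC gave a two-sided p of 0.0222, the smallest it can give. Adjusted over the 7 trend tests made here, this p was 0.0519. Over all 105 divisions of the 8 samples into 4 points, the spread between the points was the largest for the actual one (exact permutation test, one-sided p = 0.00952), but leaving out any E14.5, neonatal or adult list raised that p to between 0.0857 and 0.152. By their headers, 4 lists had control reads normalised to the antibody library (both E14.5 lists, neonatal replicate 1 and adult replicate 1), with shares of 1.94%, 1.72%, 2.02% and 2.86%. The reverse scaling was used for neonatal replicate 2 (2.13%), adult replicate 2 (2.84%) and the TAC lists. No E14.5 list was scaled in the second way, so the step from E14.5 can be seen in the first kind only, and the part of the scaling in the difference was not tested.

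In TAC CMCs, 2878 of 104477 peaks (2.75%) were transcript-end peaks in replicate 1 and 2389 of 107037 (2.23%) in replicate 2. The difference from the adult mean was -0.0976 percentage points for replicate 1 and -0.620 for the displaced replicate 2. With 2 samples against 2, the exact two-sided permutation test cannot go below 0.333, which was its value here.

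**Figure D1:**
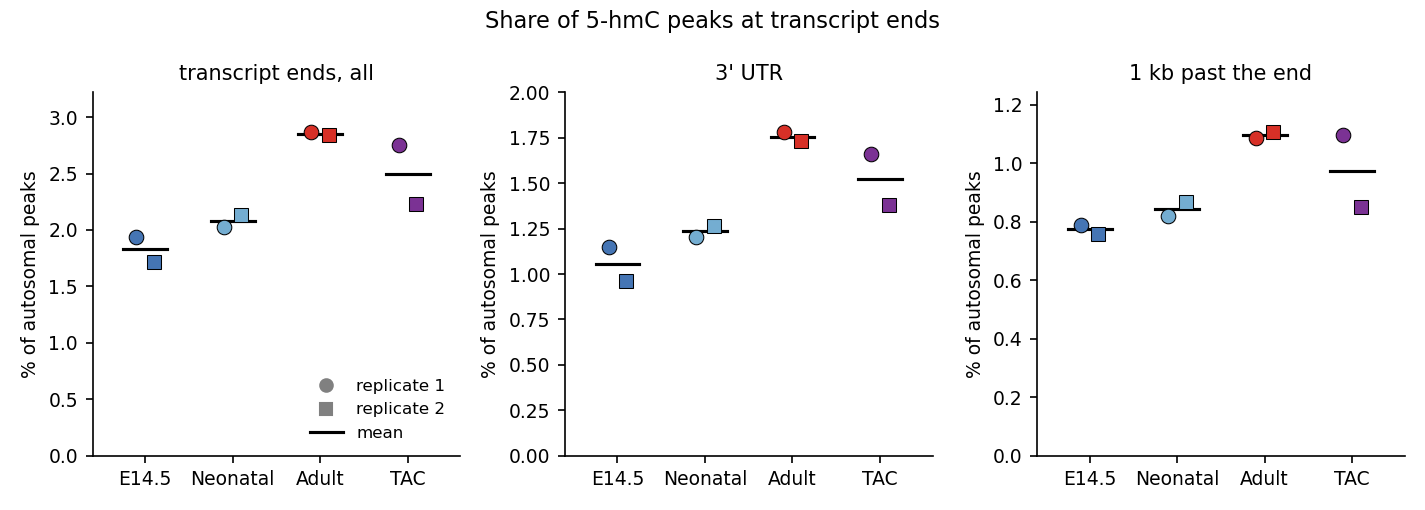
Share of autosomal 5-hmC peaks (%, y axis) centred at transcript ends (left), in 3' UTRs (middle) and in the 1 kb past the end (right) at the 4 points; each point is 1 peak list, circles replicate 1 and squares replicate 2, and bars are means. The adult lists lie at 2.86% and 2.84% in the left panel, above all E14.5 and neonatal lists, and TAC replicate 2 lies at 2.23%.

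Both parts of the territory held a larger share of peaks in adult CMCs. Peaks centred in 3' UTRs were 1.15% and 0.961% of autosomal peaks in E14.5 lists, 1.21% and 1.26% in neonatal, and 1.78% and 1.73% in adult CMCs, with 1.66% and 1.38% after TAC. Peaks centred in the flank were 0.788% and 0.759% in E14.5 lists, 0.818% and 0.867% in neonatal, and 1.08% and 1.11% in adult CMCs, with 1.09% and 0.849% after TAC. Each trend gave an exact permutation p of 0.0222 (adjusted 0.0519). The adult shares did not overlap the younger ones in either part. Per Mb, however, the neonatal and adult lists overlapped. The flank held 56.5 and 57.2 peaks per Mb in E14.5 lists, 60.6 and 72.1 in neonatal and 61.8 and 73.3 in adult lists. The 3' UTRs held 62.7 and 55.1, 67.9 and 79.9, and 77.1 and 87.5 in the same order.

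Within the members, the flank held a smaller part in adult lists than in E14.5 lists. It held 40.6% and 44.1% of the members in E14.5 lists, 40.4% and 40.7% in neonatal, 37.9% and 38.9% in adult lists with 39.7% and 38.0% in TAC lists. The adult mean minus the E14.5 mean was -4.01 percentage points (exact permutation trend test, p = 0.0444, adjusted 0.0622), and E14.5 replicate 1 lay between the neonatal lists.

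Set against the rest of the genome, transcript ends lay close to the autosomal mean at E14.5 and above it in adult CMCs. Peaks per Mb at transcript ends were 60.1 and 56.0 in E14.5 lists, 64.7 and 76.5 in neonatal, 70.5 and 81.4 in adult lists and 68.3 and 56.7 in TAC lists. Over the density of all autosomal sequence in the same list, this was 1.10 and 0.977 in E14.5 lists, 1.15 and 1.21 in neonatal, 1.63 and 1.61 in adult lists and 1.57 and 1.27 in TAC lists.

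Introns, the largest part of the gene body, also held relatively more peaks in adult CMCs, but the difference was larger at transcript ends. Intron density over the autosomal mean was 1.28 ± 0.0464 (SD, n = 2) at E14.5 and 1.57 ± 0.0249 in adult CMCs. The ratio of transcript-end to intron density was 0.842 and 0.786 in E14.5 lists, 0.840 and 0.905 in neonatal, and 1.03 and 1.04 in adult CMCs, so that a transcript end was below its introns in the younger cells and level with them in the adult. The difference of 0.22 had an exact permutation trend p of 0.0444 (adjusted 0.0622). After TAC the ratio was 1.01 and 0.937.

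Coding exons held more peaks per Mb than transcript ends in every list. Their density was 140 and 111 peaks per Mb in E14.5 lists, 143 and 147 in neonatal lists, 160 and 204 in adult lists and 163 and 65.9 in TAC lists. The ratio of transcript-end to coding-exon density was 0.428 and 0.506 in E14.5 lists, 0.453 and 0.521 in neonatal, and 0.440 and 0.399 in adult CMCs, and these groups overlapped (exact permutation trend test, p = 0.378). Beside coding exons, a rise at transcript ends was therefore not detected. In TAC replicate 1 this ratio was 0.418, and in replicate 2, with its displaced centres, 0.859.

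**Figure D2:**
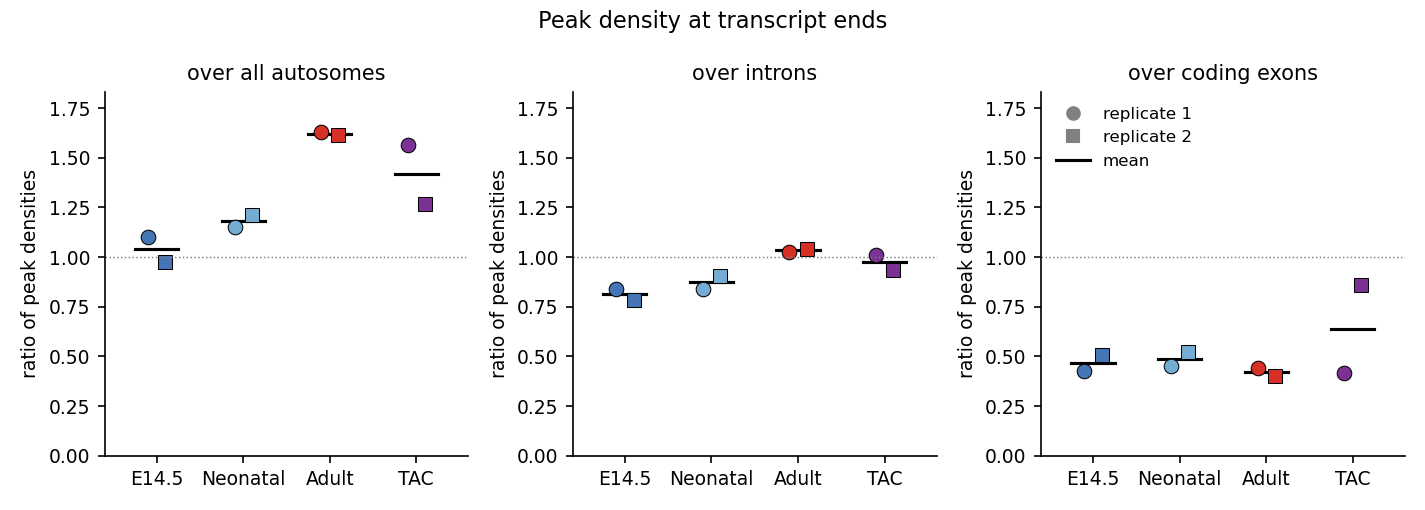
Peak density at transcript ends divided by the density over all autosomes (left), introns (middle) and coding exons (right) of the same list; points are lists, circles replicate 1 and squares replicate 2, bars are means and the dotted line is a ratio of 1. The adult lists lie at 1.63 and 1.61 over the autosomes and at 1.03 and 1.04 over introns, while over coding exons they lie at 0.440 and 0.399, close to the younger lists.

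The spread of peaks across the end was followed over transcripts of at least 10 kb with no other gene within 5 kb past the end, 1 transcript per gene (7754 ends). These densities are a description and were not tested. In 7 lists peak centres were fewest at the end itself. The 500 bp around the end held 0.458 and 0.592 times the density found 1 to 2 kb inside the gene in E14.5 lists, 0.524 and 0.654 in neonatal, 0.506 and 0.558 in adult CMCs, and 0.549 in TAC replicate 1. TAC replicate 2 showed the reverse, with 1.12 times that density at the end and troughs on both sides.

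Past the end, density relative to the autosomal mean was higher in the adult lists in each 1-kb stretch up to 5 kb. In the 1 kb next to the end it was 1.38 and 1.47 in adult lists and at most 1.18 in any younger list, and at 4 to 5 kb it was 1.27 and 1.35 against at most 1.26. The gap was thus larger near the end than further out, and relative to the autosomal mean the level furthest out was itself higher in the adult. Per Mb this was not so, as adult lists held fewer peaks over the autosomes. In the 1 kb next to the end the adult and neonatal means were both 66.8 peaks per Mb, and the E14.5 mean was 59.4. At 4 to 5 kb the adult mean was 61.5, below the neonatal (71.9) and E14.5 (66.9) means. The adult lists overlapped the younger ones per Mb at both distances. With the density at 4 to 5 kb past the end as 1, the 1 kb next to the end, trough included, stood at 0.865 and 0.908 at E14.5, at 0.920 and 0.937 in neonatal and at 1.08 and 1.09 in adult CMCs. At 1 to 2 kb past the end it stood at 0.982 and 0.987, at 1.08 and 0.956, and at 1.17 and 1.16 in the same order. At 2 to 3 kb the values were 1.02 and 1.05, 1.06 and 0.987, and 1.04 and 1.03, and the points overlapped. TAC replicate 1 stood at 1.09, 1.13 and 1.10 over the same distances and replicate 2 at 0.921, 1.18 and 1.14. On this scale the adult lists stood apart from the younger ones up to 2 kb past the end. Beside the neonatal lists, this came with the lower adult mean per Mb at 4 to 5 kb, by which the ratios were divided. At 1 to 2 kb the adult mean was 71.6 peaks per Mb, the neonatal mean 72.7 and the E14.5 mean 65.9. The scale therefore does not show more peaks per Mb past the end in adult than in neonatal lists.

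**Figure D3:**
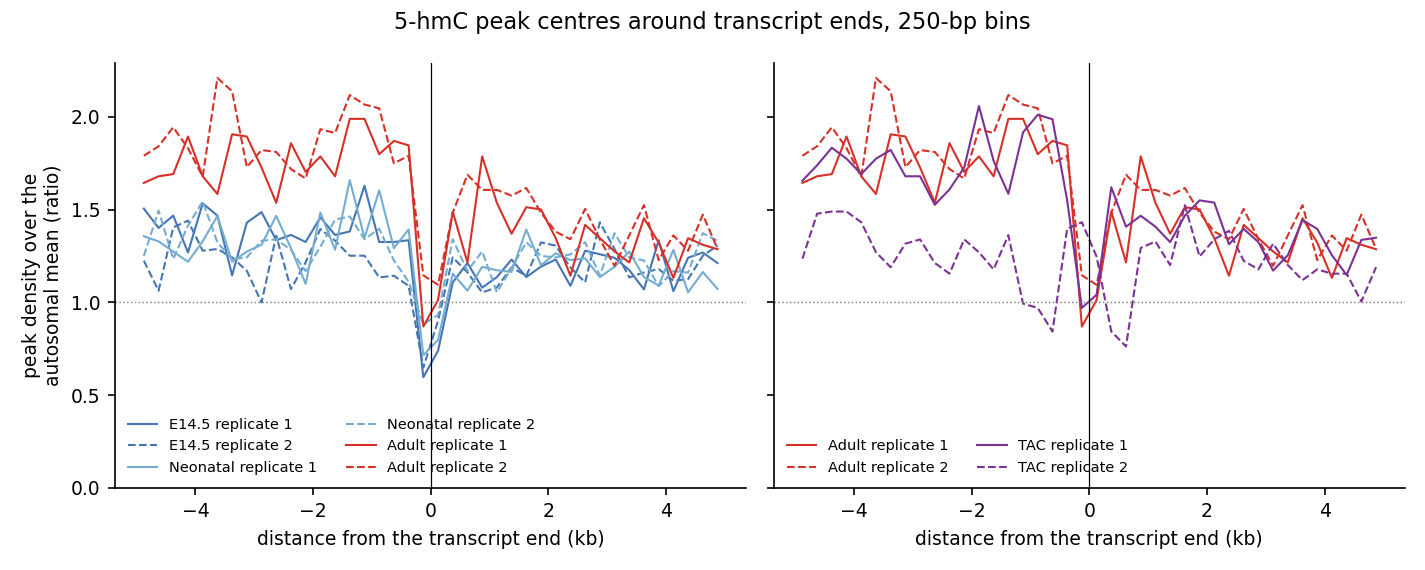
Density of 5-hmC peak centres in bins of 250 bp (y axis, ratio to the autosomal mean of the same list) by distance from the transcript end (x axis, kb, negative inside the gene); solid lines replicate 1, dashed lines replicate 2, left E14.5, neonatal and adult, right adult and TAC. All lists but TAC replicate 2 dip at 0. In the 1-kb stretches on both sides of the end the adult lists stay above the younger ones, while in the last 250 bp of the gene adult replicate 1 (0.870) lies just below neonatal replicate 2 (0.883).

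Single peaks also bridged the end. In E14.5 replicate 1, 205 of 1410 members centred in the 3' UTR of a gene ran past the transcript end. In the other lists this was 17.1% to 24.8% of them, the lowest in E14.5 replicate 2 and the highest in TAC replicate 2, and the median stretch past the end was 147 to 241 bp. Of members centred in the flank, 27.5% to 35.3% reached back over the end. Members were of modest width: the median was 501 bp in 6 lists, 626 bp in neonatal replicate 2 and 628 bp in adult replicate 2. Members wider than 501 bp made up 33.4% of the members in TAC replicate 2 and 41.6% to 52.6% in the other lists.

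Inside the 3' UTR, members lay more often near the stop codon than near the end. With each UTR cut into 5 equal parts, the part next to the stop codon held 25.8% to 27.5% of UTR members in the 7 lists without TAC replicate 2, and the last part 14.7% to 16.2%. In TAC replicate 2 these were 20.7% and 21.3%. Genes with longer UTRs had a member more often. In adult replicates 1 and 2, 1.07% and 0.816% of genes with a UTR of up to 290 bp had a UTR member, against 20.4% and 23.1% of genes with a UTR over 1744 bp, and at E14.5 the latter share was 17.3% and 15.5%. Per Mb of UTR, the 3 groups of genes with longer UTRs were closer together, at 72.9 to 81.2 in adult replicate 1 and 83.6 to 95.1 in adult replicate 2. The group with UTRs of up to 290 bp held 71.7 per Mb in adult replicate 1, near the others, and 54.5 in replicate 2. These rest on 50 and 38 members.

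The sequence under the members was richer in CpG and poorer in repeats than that under other peaks, as was the territory itself, which held 1.04 CpG per 100 bp and 20.4% soft-masked bases against 0.851 and 33.5% over the autosomes. Members held 1.89 and 1.80 CpG per 100 bp in E14.5 lists, 1.87 and 1.83 in neonatal, 1.93 and 1.90 in adult lists and 1.94 and 1.36 in TAC lists. Other peaks held 1.47 and 1.31, 1.41 and 1.35, 1.58 and 1.58, and 1.58 and 1.07. In all 8 lists the members were higher. The ratio of members to other peaks was 1.33 ± 0.0576 (SD, n = 2) in E14.5 lists, 1.34 ± 0.0184 in neonatal and 1.21 ± 0.0133 in adult CMCs (exact permutation trend test, p = 0.0889), the smaller adult ratio coming with more CpG under the other peaks. Soft-masked bases, which stand for repeats, made up 13.6% to 20.6% of member sequence and 20.4% to 31.7% of other peak sequence. Members in UTRs held more CpG than members in flanks in every list, 2.04 against 1.74 per 100 bp in adult replicate 1 and 2.05 against 1.66 in E14.5 replicate 1.

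Replicates shared members about as they shared other peaks. Members overlapped a peak of the other replicate by at least 1 bp in 39.2% and 41.6% of cases in E14.5 lists, 50.1% and 42.3% in neonatal, 47.1% and 38.5% in adult lists and 18.7% and 27.4% in TAC lists, against 43.0% and 40.7%, 47.6% and 41.6%, 43.6% and 36.8%, and 21.1% and 20.8% of the other peaks. Between ages, 43.0% and 43.1% of adult members overlapped an E14.5 peak, a smaller share than of adult coding-exon peaks (47.9% and 45.6%), intron peaks (51.2% and 52.0%) or peaks outside genes (54.7% and 57.4%). In the reverse direction, 59.1% and 55.1% of E14.5 members overlapped an adult peak, beside 67.6% and 66.2% of coding-exon peaks, 56.9% and 53.1% of intron peaks and 40.1% and 37.3% of peaks outside genes. Regions common to both replicates gave transcript-end shares of 1.78% in E14.5 lists, 2.17% for neonatal, 3.06% for adult and 2.77% for TAC lists.

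At the level of genes, 19755 protein-coding genes had territory under the rule and 8127 of them had a member in at least 1 list. Both lists of a point held a member for 982 genes in E14.5 lists, 1325 in neonatal lists, 1375 in adult and 803 in TAC CMCs. Of the 22517 members, 1073 lay at the ends of more than 1 gene, as where genes converge, and count for each. Genes with a member were longer and had more often a peak elsewhere: in adult replicate 1, 79.7% of the 2814 genes with a member also had a gene-body peak, against 52.3% of those without, and their median length was 26.6 against 15.8 kb.

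In all 8 lists, 78 genes had a member, and 207 did in all 6 lists without TAC. The most member bases over the 8 lists belonged to Bcl2l11, the gene of the pro-apoptotic protein BIM. Its members covered 4345 and 2731 bp in E14.5 lists, 7718 and 6230 in neonatal lists, 3045 and 6369 in adult lists and 6886 and 2238 in TAC lists. They lay in 3 places, not all of them in each list, 1 around the end of the long transcript, with adult peaks at chr2:128161958-128164370 and chr2:128161840-128164035, 1 in its 3' UTR and 1 at the end of a shorter transcript, from where the sequence above was taken. Next came Sec14l1, which encodes a lipid-binding protein of the SEC14 family, with 3405 and 2854 bp in E14.5 lists, 3572 and 6199 in neonatal lists, 1968 and 6394 in adult lists and 3165 and 1749 in TAC lists. In adult replicate 2 its end lay under 1 peak of 6394 bp (chr11:117156445-117162838) that ran from the UTR over the whole flank. Ywhag, encoding the adaptor protein 14-3-3 gamma, had 3075 and 1440 bp in E14.5 lists, 4445 and 4112 in neonatal lists, 3260 and 4152 in adult lists and 3646 and 2260 in TAC lists, mostly in its 3' UTR.

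Other genes with a member in all 8 lists were those of the focal adhesion protein Tns1, of the caveolar coat protein Cavin1, of the myosin phosphatase subunit Ppp1r12b, of the ETS repressor Etv3, of the anchoring protein Pakap, and Zfp704 and Tmem44. Their bases differed within and across points: Cavin1 ranged from 501 bp in E14.5 replicate 1 to 5362 in neonatal replicate 1, and Ppp1r12b from 501 bp to 5460 bp in adult replicate 2. Ppp1r12b shared members with Syt2. When TAC is left aside, Adam11, Scd2 and Zfp46 also enter the 10 genes with the most bases. Scd2, a fatty acid desaturase, had 3065 and 4049 bp in E14.5 lists, 4356 and 4670 in neonatal lists, 998 and 501 in adult CMCs, and 684 and 0 after TAC, so that its adult lists lay below all younger ones.

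From E14.5 to adult, 558 gene ends were gained, that is, had a member in both adult lists and in neither E14.5 list, and 261 were lost in the reverse sense. These are 2.82% and 1.32% of the 19755 genes. Of the gained ends, 279 had no member in the neonatal lists and 70 had one in both, and 265 had one in TAC replicate 1 and 180 in replicate 2. From E14.5 to neonatal, 287 were gained (1.45%) and 116 lost (0.587%). From neonatal to adult, 394 were gained (1.99%) and 333 lost (1.69%). Counts have no replicates and no test. With the same number of peaks taken from each list, the counts were 607 gained and 167 lost from E14.5 to adult, and 496 gained and 200 lost from neonatal to adult. Which of gained and lost was larger turned with the lists used: from E14.5 to adult, 830 were gained and 911 lost without E14.5 replicate 1, and 779 gained and 898 lost without E14.5 replicate 2. From neonatal to adult, 608 were gained and 1136 lost without neonatal replicate 1, and 687 gained and 934 lost without neonatal replicate 2. From E14.5 to neonatal, 507 were gained and 527 lost without E14.5 replicate 1, and 585 gained and 775 lost without E14.5 replicate 2. A point with 1 list left has its members counted more easily, so these counts favour that point by construction.

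**Figure D4:**
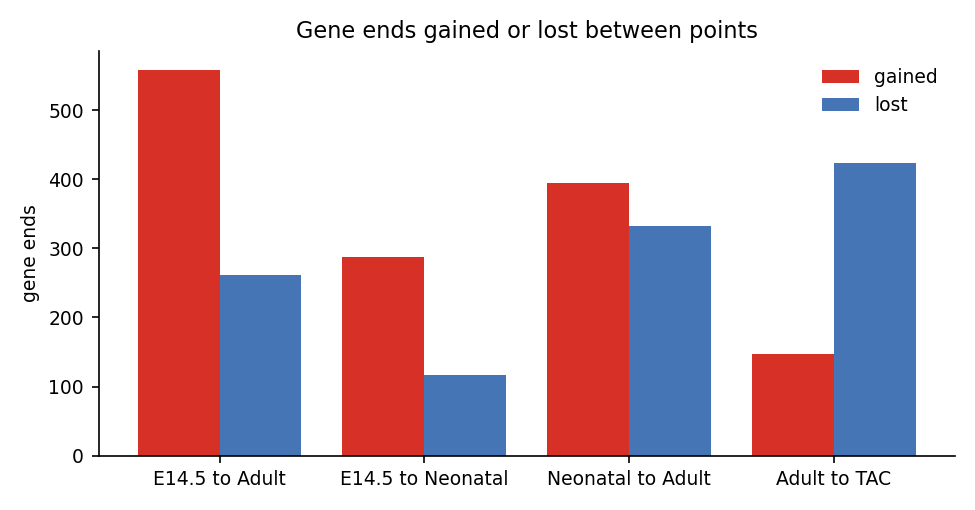
Number of gene ends gained (red) and lost (blue) between points, where a gained end has a transcript-end peak in both lists of the later point and in neither of the earlier one. From E14.5 to adult 558 were gained and 261 lost, and from adult to TAC 147 were gained and 423 lost.

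Genes whose ends were gained more often had more peaks in their bodies too, a comparison that was not tested. The 558 genes held a mean of 5.85 gene-body peaks per list in E14.5 lists, 7.27 in neonatal lists and 7.86 in adult lists, and 64.3% of them had more in adult than at E14.5, against 36.5% of all genes. The 261 genes with lost ends held 5.26, 5.36 and 4.25, and 43.3% of them had fewer in adult than at E14.5, against 28.4% of all genes. Of these 261 genes, 36.4% had more. The median territory was 2652 bp for gained, 2351 bp for lost and 1706 bp for all genes. Median gene length was 24.2, 26.8 and 17.1 kb in the same order, so both called sets were longer than genes at large.

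Among gained ends with no neonatal member, the most adult bases belonged to Nfix, a nuclear factor I transcription factor. Nfix had none at E14.5 or in neonatal CMCs, 807 and 5745 bp in adult and 802 and 1237 bp in TAC CMCs, centred in its 3' UTR, with adult peaks at chr8:84706424-84707230 and chr8:84702551-84708295. The second of these reached the end of the convergent gene Lyl1, which shared the member. Lipe, encoding hormone-sensitive lipase, had 2642 and 3739 bp in adult CMCs, none in TAC replicate 1 and 501 bp in replicate 2. The peaks, at chr7:25378587-25381228 and chr7:25377372-25381110, covered its short 3' UTR and the flank printed above, where a further gene, 4732471J01Rik, is annotated. Lsm10, a part of the machinery that forms the 3' ends of histone mRNAs, had 1655 and 3942 bp in adult and 1626 bp in TAC replicate 1.

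Ndufb7, a subunit of respiratory complex I, had 1922 and 3120 bp in adult CMCs and 2088 bp in TAC replicate 1, and shared its members with the convergent gene Tecr. Uqcr10, a subunit of complex III, had 2473 and 844 bp in adult CMCs and none in either TAC list. Chchd2, a mitochondrial intermembrane protein, had 1191 and 2250 bp in adult and 1422 bp in TAC replicate 1. Mcat, of mitochondrial fatty acid synthesis, had 1498 and 1990 bp in adult and 501 and 630 bp in TAC CMCs. Fastk, a kinase-like RNA-binding protein, had 927 and 2902 bp in adult and 2322 and 1088 bp in TAC CMCs and shared its end with Slc4a2. The remaining 4 by this rule were Rbm15b, of the RNA methylation complex, Rab3ip, an exchange factor for a Rab GTPase, the anoctamin Ano10, and Ccdc85c, with 1086 to 3461 bp in the adult lists. Ccdc85c shared members with Ccnk.

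Among lost ends, Cox6a2, the muscle form of a cytochrome c oxidase subunit, had 1813 and 3001 bp at E14.5 and none in any later list, with peaks at chr7:128204385-128206197 and chr7:128203261-128206261 that also reached the end of Itgad. Slc25a4, the ADP/ATP carrier of heart and muscle, had 671 and 2530 bp in E14.5 lists, 2667 bp in neonatal replicate 2 and none in adult or TAC CMCs, with centres in the flank. The other lost ends with the most bases and none in TAC were those of Pcnx2, Nccrp1, Mgat4f, the biotin-recycling enzyme Btd, Zmiz2, the transcription factors Ebf3 and Foxp4, the chemerin receptor Cmklr1, and the convergent pair Tmem94 and Caskin2, which held the same peaks. Of these, only Btd, besides Cox6a2, had no neonatal member.

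**Figure D5:**
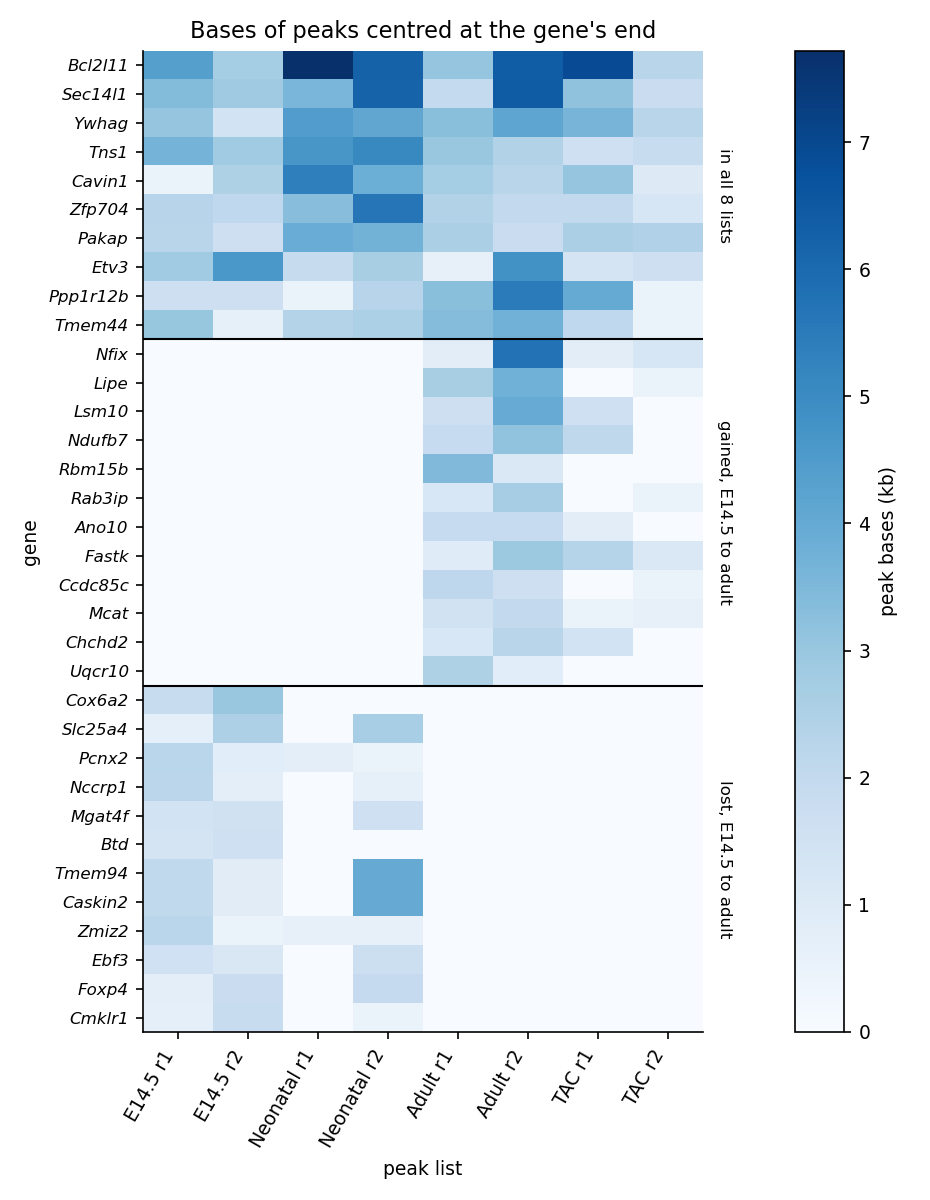
Bases of transcript-end peaks (colour, kb) in each of the 8 lists (columns) for the 10 genes with the most among those in all 8 lists, the 12 gained and the 12 lost from E14.5 to adult (rows). Nfix has 5745 bp in adult replicate 2 and Cox6a2 3001 bp in E14.5 replicate 2, while Bcl2l11 has 7718 bp in neonatal replicate 1.

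The 11 lists of heart genes placed these counts by function, each read against 2.82% gained and 1.32% lost over all genes. Over the 278 genes of all lists together, 9 were gained and 5 lost (3.24% and 1.80%), near those shares. The percentages of single lists rest on few genes each and were not tested. Of 27 genes of cardiac transcription factors, 3 were gained and none lost (11.1% and 0%). Tbx5, a factor of chamber formation and conduction, had none in E14.5 lists, 1660 bp in neonatal replicate 1 only, 1663 and 780 bp in adult lists and 1157 and 501 bp in TAC lists. Ppargc1a, the coactivator PGC-1 alpha of mitochondrial biogenesis, had members in the adult lists (1148 and 1194 bp) and TAC replicate 1 (501 bp), all in its 3' UTR. Nr3c2, the mineralocorticoid receptor, had 501 bp in each adult list and 754 bp in TAC replicate 1.

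Among 28 genes of the TCA cycle and oxidative phosphorylation, 2 were gained and 3 lost (7.14% and 10.7%). The gained were Ogdh, of the 2-oxoglutarate dehydrogenase complex, with 501 bp in each adult and 2299 and 1193 bp in the TAC lists, and Suclg1, of succinyl-CoA ligase, with 879 and 882 bp in adult and none in TAC CMCs. The lost were Cox6a2, Slc25a4 and Uqcrc1, a core subunit of complex III with 675 and 954 bp at E14.5. Of 27 genes of fatty acid uptake and oxidation, 2 were gained and none lost (7.41% and 0%). These were Eci1 and Decr1, auxiliary enzymes for the oxidation of unsaturated fatty acids, with 1501 and 501 bp and 501 and 1630 bp in adult CMCs. Eci1 shared members with the gene Dnase1l2. In this list and that of the TCA cycle, gene-body peaks per 100 kb went from 7.69 and 6.59 at E14.5 to 15.4 and 16.4 in adult CMCs, while the transcript ends were gained in 2 genes each, and these densities were not tested.

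Of 30 sarcomere genes, 1 was gained (3.33%), Ldb3, which encodes a Z-disc protein and had 1002 bp in each adult list, and none was lost. Synpo2l, another Z-disc gene, had a member in all 8 lists, from 630 to 1626 bp. Of 25 genes of calcium handling and ion channels, none was gained or lost from E14.5 to adult, although 18 had a member in some list. Both counts are near the shares over all genes. Cacnb2, a calcium channel subunit, and Asph, whose locus also encodes junctin, had a member in all 8 lists. Asph shared members with Clvs1.

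In signalling lists, 1 of 31 genes of Wnt, TGF-beta and BMP signalling was gained (3.23%), Smad3, with 844 and 501 bp in neonatal lists, 645 and 1294 bp in adult and 2015 bp in TAC replicate 1. Smad4 had a member in all lists but TAC replicate 2. Of 29 hypertrophic signalling genes, 1 was lost (3.45%). This was Adrb1, the beta-1 adrenergic receptor, with 632 and 808 bp in E14.5 lists, 2205 and 501 bp in neonatal and none in adult or TAC CMCs, all centred in the flank (chr19:56724951-56725582 and chr19:56725002-56725809 at E14.5). Gnaq, Igf1r and Hdac4 had a member in all 8 lists. Hdac4, a repressor of hypertrophic genes, had 501 bp in each E14.5 list, 2192 and 2606 bp in neonatal lists, 3310 and 2468 bp in adult lists and 1466 and 501 bp in TAC lists, so the E14.5 lists lay below the neonatal and adult ones.

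Of 18 genes of DNA methylation and its oxidation, none was gained or lost. Tet3, an enzyme that makes 5-hmC, had a member in its 3' UTR in every list, with 1832 and 1391 bp in E14.5 lists, 2050 and 1653 bp in neonatal lists, 2828 and 1217 bp in adult and 1415 and 1629 bp in TAC CMCs. None of 30 cell cycle genes was gained or lost. Of 18 fibroblast and matrix genes, 1 was lost (5.56%), the collagen receptor Ddr2, with 501 bp in each E14.5 and neonatal list. Of 17 endothelial genes, none was gained or lost, and Kdr and Flt1, receptors for vascular endothelial growth factor, had a member in all 6 lists without TAC.

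From adult to TAC, 147 gene ends were gained and 423 lost, or 0.744% and 2.14% of genes. With TAC replicate 1 alone deciding, 912 were gained and 613 lost, and with the displaced replicate 2 alone 1013 and 841. The excess of losses thus appeared only where both TAC lists had to hold a member. With 1 TAC list left, its members are counted more easily, so these counts favour gains by construction. They cannot decide whether losses exceed gains. Among the gained ends with the most TAC bases were those of Grin3b, an NMDA receptor subunit (3415 and 1869 bp), Dlgap4 (4620 and 501 bp), Pitpnm2 (3566 and 879 bp), Lad1 (2654 and 635 bp) and Tmem208 (1857 and 1101 bp). Of these only Grin3b had no member at any earlier point, and Pitpnm2 shared members with Arl6ip4. The lost ends with the most adult bases were those of Fbxo31, a subunit of a ubiquitin ligase, with 3301 and 4835 bp, Pank4 (3134 and 3083 bp), Nt5c3b (3944 and 1901 bp), Emc9 (2390 and 2606 bp), the phosphate transporter Slc20a2 (1966 and 3012 bp) and Ddit3, the stress factor CHOP (1224 and 3692 bp). Ddit3 shared members with Mars1. Fbxo31 also had members in all E14.5 and neonatal lists, of 501 to 1484 bp, so its TAC lists were the only ones without a member. In the lists of heart genes, ends lost from adult to TAC were Eci1, Suclg1, Cox7a1, Idh2, Ankrd1 and Flt1, and none was gained. These 6 are 2.16% of the 278 genes in the lists, beside 2.14% over all genes. Of these, Cox7a1, an oxidase subunit, had 851 and 1146 bp in adult CMCs and Ankrd1, a stress-responsive muscle gene, 501 bp in each. Cox7a1 shared members with Capns1.

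The widest members of the adult lists all came from adult replicate 2. Among them were a peak of 10010 bp centred in the flank of Hcn2, a pacemaker channel gene (chr10:79731893-79741902), 1 of 7130 bp at Sil1, 1 of 6997 bp at Hip1r (chr5:123999788-124006784) and the 6394 bp at Sec14l1. The widest member of adult replicate 1 was 5757 bp.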

How the data were processed

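hMeDIP-seq peak lists of 8 samples were used, 2 each of E14.5, neonatal, adult and TAC CMCs; 11 further samples in the labels (inputs and sh-control) were not analysed here. The authors aligned reads to mm10 with BWA 0.7.4-r385, marked duplicates with Picard, removed reads of mapping quality under 10 with bamtools API 2.2.3, and called peaks per replicate against input with HOMER findPeaks 4.5 in histone mode. The deposited files give chromosome, start and end of each peak, and a deposited score column that is 1 throughout and was not used. Removing reads of low mapping quality thins peaks over repeats. By the headers, antibody reads were normalised to input in 4 lists (neonatal and adult replicates 2, TAC) and input to antibody reads in the others. The study states a minimum of reads per condition, not the depth of each list.

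Peak centres were placed on curated RefSeq transcripts (annotation release 108, GRCm38, which is mm10; 45756 transcripts) with code in Python 3.11.15 and numpy, checked on simulated data. Densities divide by known bases of each class. A peak at several gene ends counts for each. Samples were grouped by the labels. Trends used exact permutation tests over arrangements of samples, and p-values were adjusted by Benjamini-Hochberg over 7 tests. Nothing but the labels' replicate numbers and the study's description as biological replicates says how cultures or animals were divided. The correlation of the replicate differences over genes was between -0.0271 and 0.144, so equal numbers were not taken as pairs.

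The peak rule, gene lists and rules for naming genes were chosen with earlier results of these data known. Named were the 10 genes with the most member bases among those in all 8 lists and in all 6 without TAC, the 12 gained and 12 lost from E14.5 to adult (none in neonatal, or none in TAC, lists), 6 gained and 6 lost from adult to TAC, the 5 widest adult members, and genes of the 11 lists that were gained, lost or in all 6 lists without TAC; other list genes with end peaks lost after TAC were named after their values were seen. Some genes that these rules select are not reported here. Alternatives were GENCODE M21, flanks of 500 bp and 2 kb, peak base pairs, equal numbers of peaks, 1 transcript per gene, ends with no other gene within 5 kb, any overlap, common regions, omission of 1 list at a time, and a block for replicate number.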

Additional observations from a re-analysis of the deposited data

How the results depend on the processing

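A call in this section means an unadjusted exact permutation p below 0.05, and no trend was below 0.05 after adjustment. The share of peaks at transcript ends, in 3' UTRs and in flanks was higher in adult than E14.5 CMCs under every alternative run, with p at or below 0.0444 for GENCODE M21, both other flanks, peak base pairs, equal numbers of peaks, 1 transcript per gene and isolated ends. Leaving out 1 list, the adult minus E14.5 differences ranged from 0.913 to 1.13, from 0.606 to 0.797 and from 0.306 to 0.336 percentage points; without a neonatal list the exact permutation test cannot go below 0.0667. With the replicate number as a block, though the numbers do not pair these samples, the differences stayed at 1.02, 0.701 and 0.321 with an exact p of 0.0556, the smallest that fit allows; the flank part stayed at -4.01 (0.0556) and the ratio to introns at 0.22 (0.111), and the block changed no other call. Regions common to both replicates gave a larger difference in share, 1.29. The spread over the 4 points ranged from 0.913 to 1.13 without 1 list.

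The flank part of the members lost its call with GENCODE M21 (-2.68), a flank of 500 bp (-3.73) and isolated ends (-4.47), and ranged from -5.75 to -2.26 without 1 list. Of the lists left out in turn, only E14.5 replicate 1 left this call and that of the ratio to introns in place (exact permutation p from 0.0667 to 0.167 without the others). The ratio to introns was 0.11 with isolated ends (0.0444), ranged from 0.19 to 0.25 without 1 list, and the CpG ratio ranged from -0.16 to -0.081 without 1 list.

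Counts of gained and lost ends depend on the rule. With any overlap in place of the centre they were 1003 gained from E14.5 to adult, 468 from E14.5 to neonatal and 622 from neonatal to adult, and 644 lost from adult to TAC. With equal numbers of peaks, 167 were lost from E14.5 to adult and 200 from neonatal to adult. With isolated ends, which are fewer, the counts were 271 gained and 159 lost from E14.5 to adult, 147 and 73 from E14.5 to neonatal, 207 and 188 from neonatal to adult, and 90 and 234 from adult to TAC. With 1 list deciding at a point, they ranged over 779 to 1646 gained and 431 to 911 lost from E14.5 to adult, 507 to 1028 and 223 to 775 from E14.5 to neonatal, 608 to 1365 and 575 to 1136 from neonatal to adult, and 257 to 1013 and 613 to 1361 from adult to TAC. The number of reads per list not being in the files, a missing peak is not shown to be a missing mark.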
